A study of Mus musculus with 6 samples.

Results

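Long noncoding genes that carry small nucleolar RNAs (snoRNAs) in their introns, 9 in number, were followed in cultured mouse CD4 T cells: Gas5, Snhg1, Snhg3, Snhg4, Snhg5, Snhg6, Snhg7, Snhg8 and Snhg12. They were taken by symbol from a gene count table of 24047 rows, all 9 have a row, and all 9 were among the 10454 genes kept by the filter on low counts. The set was put together with the outcome of the genotype comparison known, so the differences of these genes between genotypes are given as a description, without a test. The mice were 7 weeks old, of the strain B6.129, and gave spleen cells, with 3 mice for each genotype and 3 libraries for each. WT libraries are from wild-type mice, and Srsf1-cKO libraries from mice labelled as a conditional knockout of Srsf1, with floxed Srsf1 alleles and a dLck.Cre transgene. That transgene drives Cre from the distal Lck promoter, so the allele is deleted only in T cells that have expressed Cre. All 6 cultures were treated alike. Naive CD4 T cells were activated for 72 h through CD3 (antibody at 0.5 µg/mL) and CD28 (antibody at 1 µg/mL), with no polarizing cytokine named (Th0). For a further 4 h they received ionomycin (1 µM) and PMA (100 ng/mL), which mimic signalling from the T cell receptor.

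A snoRNA host gene is transcribed and spliced, and the snoRNAs are trimmed out of the excised introns and packed with proteins into snoRNPs. Box C/D snoRNAs guide ribose methylation and box H/ACA snoRNAs guide pseudouridylation, mostly of ribosomal RNA, and a few of them take part in cutting its precursor. The spliced exons of the noncoding hosts hold no long reading frame, and many are removed by nonsense-mediated decay (NMD), a translation-dependent pathway. Host transcripts commonly begin with a 5′ terminal oligopyrimidine (5′TOP) tract, a C followed by further C or T bases, which they share with the mRNAs of ribosomal proteins and through which growth signals act on translation. Gas5 was named for its accumulation in growth-arrested cells, and its RNA is also known to bind the glucocorticoid receptor.

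Start regions of 4 hosts, from RefSeq on GRCm38.p6, show how these transcripts begin. Each line runs from 20 bases before the annotated start to 30 bases into the transcript, on the strand of the gene, and capitals mark an unbroken run of C and T bases near the start. Gas5 lies on the plus strand at chr1:161035146-161035195, Snhg12 on the plus strand at chr4:132308658-132308707, Snhg8 on the minus strand at chr3:123508307-123508356 and Snhg1 on the plus strand at chr19:8723467-8723516.
Gas5: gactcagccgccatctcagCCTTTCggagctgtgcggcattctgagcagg
Snhg12: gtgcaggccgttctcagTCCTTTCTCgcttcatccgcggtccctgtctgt
Snhg8: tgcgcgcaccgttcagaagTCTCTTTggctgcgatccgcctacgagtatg
Snhg1: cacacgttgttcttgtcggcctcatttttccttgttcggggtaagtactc

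The Gas5, Snhg12 and Snhg8 lines each hold a run of at least 5 pyrimidines opening with C within 10 bases of the start, searched on the coding strand alone, and the Snhg1 line holds none at the annotated start. Snhg12 has the longest of these runs, 8 bases from its first C. Gas5 has a second annotated start without such a run. Of the 9 hosts, 7 have an entry in the promoter table (not Snhg4 or Snhg6), which is under 80%, so a count over the group is void as a check. For reference, 34.4% of 27025 genes in that table and 37.1% of the 8024 tested genes in it hold the run, and among 58 ribosomal protein genes it is found in 35.

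Intronic snoRNAs of 3 hosts are shown because reads in their own rows are described further on. They are taken from the GENCODE M21 transcripts on GRCm38, and capitals mark the short boxes by which the families are known: TGATGA (box C) and CTGA (box D) in box C/D snoRNAs and ACA near the end of a box H/ACA snoRNA. Snord47 is in Gas5 on the plus strand at chr1:161038082-161038158, Snord22 in Snhg1 on the plus strand at chr19:8725866-8725991 and Snora17 in Snhg7 on the minus strand at chr2:26639190-26639321.
Snord47: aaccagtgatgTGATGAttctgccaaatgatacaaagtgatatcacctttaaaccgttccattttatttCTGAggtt
Snord22: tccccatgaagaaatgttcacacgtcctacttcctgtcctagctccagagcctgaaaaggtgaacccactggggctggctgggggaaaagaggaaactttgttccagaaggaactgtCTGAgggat
Snora17: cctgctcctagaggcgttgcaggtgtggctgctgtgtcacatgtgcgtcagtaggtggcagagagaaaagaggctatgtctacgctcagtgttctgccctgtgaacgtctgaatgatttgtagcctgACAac

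The libraries held 7781283 to 10184268 gene counts. The whole-gene count for Srsf1 was 540, 458 and 486 CPM in WT and 523, 548 and 471 CPM in Srsf1-cKO. Its log2 fold change was 0.06 (SE 0.12, edgeR adjusted p = 0.780). Such a count cannot decide whether floxed exons were deleted, because reads from the remaining exons may still be counted. Exon-level reads and protein were not examined, so the count neither bears out the labels nor speaks against them. CPM here are counts scaled to a common library size after TMM adjustment. Groups are therefore named by their labels, and every difference is Srsf1-cKO over WT. Markers of CD4 T cells were abundant in both groups, with 9 genes summing to 2681 to 2920 CPM in WT and 2494 to 3507 CPM in Srsf1-cKO. Some markers of other cells differed between groups. B cell markers summed to 1.19 to 6.50 CPM in WT and 7.98 to 19.6 in Srsf1-cKO, myeloid markers to 2.90 to 6.85 and 10.4 to 24.6, and dendritic cell and MHC class II markers to 71.9 to 101 and 129 to 159. CD8 and NK markers summed to 24.8 to 42.8 CPM in WT and 17.6 to 23.5 in Srsf1-cKO. That sum was nearly all Cd8b1 (means of 30.38 and 19.95 CPM), which did not pass (edgeR adjusted p = 0.115). Cd8a, Klrb1c and Klra1, at low levels, had higher means in Srsf1-cKO. Within the dendritic cell and MHC class II list, H2-Ab1, Zbtb46 and Flt3 had lower means in Srsf1-cKO, and the other genes higher ones. These 2 sums therefore do not stand for each marker in them. Of 7 erythroid and platelet markers, 5 were at 0 in all libraries, and 1 of the 9 myeloid and 1 of the 5 CD8 and NK markers had no counts in any. Splices per uniquely mapped read were 0.296, 0.305 and 0.279 in WT and 0.271, 0.269 and 0.271 in Srsf1-cKO, without overlap. The part of these shifts in the differences below was not tested, and in these bulk cultures fewer cells of a type and less RNA per cell cannot be told apart.

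Host transcripts were less abundant in Srsf1-cKO for most of the group. Summed over the 9 genes, the level was 1544, 1514 and 1420 CPM in WT and 836, 685 and 638 CPM in Srsf1-cKO, with means of 1493 ± 64.5 and 720 ± 104 (SD over 3 libraries). All Srsf1-cKO sums lay below all WT sums. In the fit over all tested genes, 6 of the 9 were called lower at an adjusted p under 0.05 (Gas5, Snhg1, Snhg5, Snhg6, Snhg7 and Snhg12) and 0 higher (also 0 by DESeq2 and limma-voom, and 1 at an unadjusted p under 0.05). Of all tested genes, 18.4% were called, 9.50% lower and 8.90% higher. That balance depends on the scaling: the counts were 993 lower and 930 higher here, and 709 and 1268 under library-size scaling. Because these genes were chosen from this contrast, nothing is read from that count. In 7 of the 9 every Srsf1-cKO library lay below every WT library, in 1 every one lay above, and in Snhg3 the groups overlapped. Over all tested genes, 39.4% showed no overlap, 19.5% lower and 19.9% higher. The median log2 fold change of the 9 was -0.90, against 0.01 over all tested genes. At the threshold of 0.05, Snhg7 was just inside, with a log2 fold change of -0.76, and Snhg4 and Snhg8 were just outside, at 0.54 and -0.40. Snhg7 lost its call when any 1 of the 6 libraries was left out, and Snhg6 lost it without WT replicate 1 or Srsf1-cKO replicate 2.

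**Figure D1:**
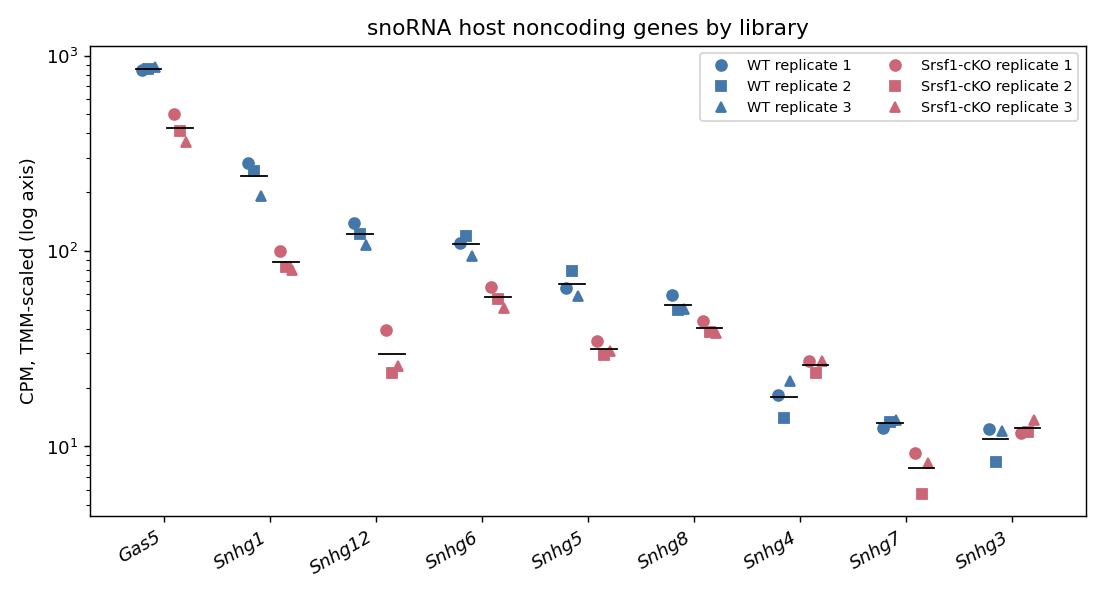
CPM (TMM-scaled, log axis) of the 9 host genes in each library, ordered by level, with circles, squares and triangles for replicates 1, 2 and 3 and a bar at each group mean. Gas5 stands highest, Snhg12 shows the widest gap between WT (blue) and Srsf1-cKO (red), and Snhg4 is the gene whose Srsf1-cKO libraries all lie above WT.

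Among hosts of box C/D snoRNAs, Gas5 had the most counts. Its level was 845, 853 and 871 CPM in WT and 504, 413 and 363 CPM in Srsf1-cKO. The WT libraries were nearly alike and the Srsf1-cKO libraries more spread, with replicate 3 lowest, and the groups did not overlap. The log2 fold change was -1.01 (SE 0.14), or -50.2% in mean CPM. Gas5 made up 54.8 to 61.3% of the summed CPM of the 9 in WT and 56.9 to 60.3% in Srsf1-cKO. GENCODE M21 places 9 snoRNA units inside it.

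Snhg1, also known as the U22 host gene, stood at 282, 256 and 191 CPM in WT and at 100.1, 82.9 and 80.1 CPM in Srsf1-cKO. WT replicate 3 was the lowest WT library and was still well above each Srsf1-cKO library. The log2 fold change of -1.47 (SE 0.17) is the second lowest of the group, and leaving out single libraries moved it between -1.63 and -1.37. Snhg1 holds 8 snoRNA units.

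Snhg5, the U50 host gene, was measured at 64.8, 78.6 and 59.0 CPM in WT and 34.5, 29.2 and 30.8 CPM in Srsf1-cKO. Here WT replicate 2 was highest, whereas in Snhg1 it was replicate 1. Its log2 fold change was -1.10 (SE 0.16). Snhg6, which carries Snord87, read 111, 119.5 and 94.1 CPM in WT and 65.8, 57.0 and 51.0 CPM in Srsf1-cKO, a log2 fold change of -0.90 (SE 0.15). The groups were apart in both genes. Snhg6 overlaps Mcmdc2 on the opposite strand, and whether counting used the strand is not stated, so reads of the pair may be shared.

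Snhg12 carries snoRNAs of both families, 3 of box H/ACA and Snord99 of box C/D, and had the lowest log2 fold change of the group. Its level was 139, 122 and 107 CPM in WT and 39.2, 23.8 and 25.7 CPM in Srsf1-cKO. Even the highest Srsf1-cKO library, replicate 1, lay far under the lowest WT library. The log2 fold change was -2.05 (SE 0.21), with -2.31 to -1.92 when single libraries were left out, and mean CPM changed by -75.9%. By fold change it was number 55 from the lowest among all tested genes. Its share of the summed CPM of the 9 hosts went from 7.56 to 9.002% in WT to 3.47 to 4.69% in Srsf1-cKO.

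**Figure D2:**
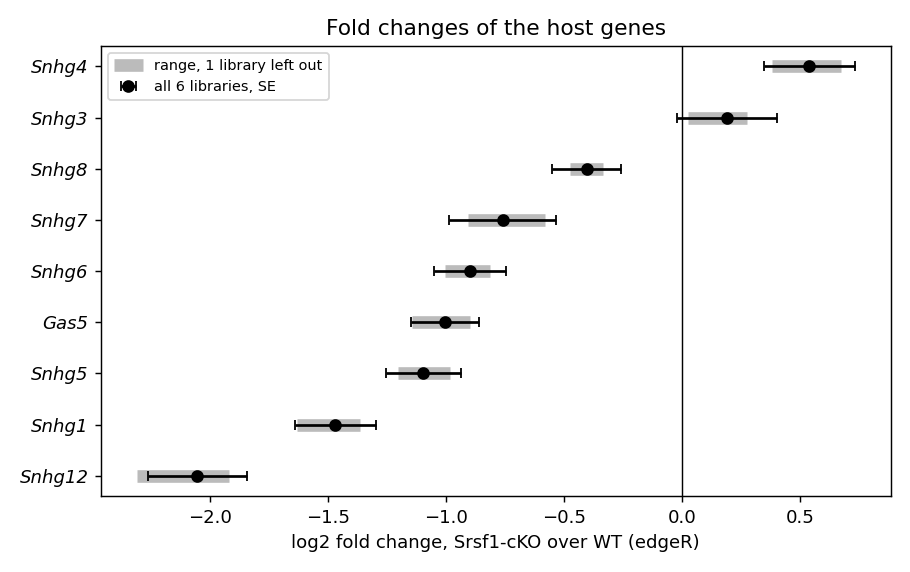
Log2 fold change (Srsf1-cKO over WT, edgeR) of each host gene, as a point with its SE from all 6 libraries, over a grey bar for the range when each library was left out in turn. Values run from -2.05 for Snhg12 to 0.54 for Snhg4, and no grey bar crosses 0.

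Hosts of box H/ACA snoRNAs did not share a direction. Snhg8, which carries Snora24, was at 59.3, 49.7 and 50.4 CPM in WT and 44.0, 38.5 and 38.0 CPM in Srsf1-cKO. The groups did not overlap, with a log2 fold change of -0.40 (SE 0.15) that was not called. Snhg7, in which RefSeq places Snora17 and Snora43, was at 12.5, 13.4 and 13.6 CPM in WT and 9.29, 5.69 and 8.26 CPM in Srsf1-cKO. The groups were apart, with replicate 2 the lowest of the Srsf1-cKO libraries. Snhg7 rests on 51 to 113 counts per library and has a log2 fold change of -0.76 (SE 0.23).

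Snhg4, the U19 host gene, had the highest log2 fold change of the group. It stood at 18.4, 14.05 and 21.6 CPM in WT and 27.4, 23.8 and 27.3 CPM in Srsf1-cKO, so that the lowest Srsf1-cKO library lay just above the highest WT library. The log2 fold change of 0.54 (SE 0.19) was not called in the edgeR fit over all 6 libraries. It passed under library-size scaling (0.64), without WT replicate 3 (0.67) and in the FPKM table (0.62). Its CPM relative to those of Snhg12 was 0.132, 0.115 and 0.202 in WT and 0.700, 1.00 and 1.06 in Srsf1-cKO, a description of how unequally these 2 hosts changed. Snhg4 overlaps another annotated gene on the same strand, so its count may hold reads of that gene.

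Snhg3 carries Snora73a and Snora73b, the U17 snoRNAs, which act in early cleavage of the ribosomal RNA precursor. It was the gene whose groups overlapped: 12.3, 8.32 and 12.01 CPM in WT and 11.8, 11.8 and 13.6 CPM in Srsf1-cKO. Only WT replicate 2 stood apart from the rest, on the low side. The log2 fold change was 0.19 (SE 0.21), on 64 to 145 counts per library. Snhg3 overlaps the coding gene Rcc1 on the same strand, so its count may hold reads of that gene. The start of Snhg3 lies 81 bases from that of Rcc1. Rcc1, the nucleotide exchange factor of the GTPase Ran, rose from 99.6 ± 9.80 to 163 ± 15.8 CPM (SD, n = 3 each), with a log2 fold change of 0.71 (SE 0.13, edgeR adjusted p = 0.0119), and kept its call when 1 library was left out in 4 of 6 cases.

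Coding genes that start next to other hosts on the opposite strand had log2 fold changes nearer 0. Zbtb37 starts 427 bases from Gas5, which it overlaps, and was at 9.36 ± 1.37 CPM in WT and 9.08 ± 0.552 in Srsf1-cKO (log2 fold change -0.05, SE 0.21, edgeR adjusted p = 0.891). Reads of Zbtb37 and Gas5 may be shared, since strand use in counting is not stated. Slc3a2, a chain of amino acid transporters, starts 106 bases from Snhg1 and was at 382 ± 41.9 and 336 ± 94.8 CPM (log2 fold change -0.18, SE 0.21, edgeR adjusted p = 0.557). Neither passed the test, while the hosts beside them had log2 fold changes of -1.01 and -1.47. The difference between a host and its neighbour was not tested.

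Levels were compared between the hosts per length, with the deposited FPKM values. In WT, Snhg1 (392 ± 87.2 FPKM) and Snhg6 (324 ± 46.0) led and overlapped in their libraries, followed by Snhg12 (194 ± 22.1), Gas5 (116 ± 8.40), Snhg5 (55.4 ± 9.84), Snhg8 (37.3 ± 2.78), Snhg3 (29.3 ± 4.84), Snhg4 (12.5 ± 2.31) and Snhg7 (11.2 ± 1.501; SD, n = 3 each). Snhg4 and Snhg7 differed by less than their spread. In Srsf1-cKO, Snhg6 (179 ± 20.3 FPKM) led Snhg1 (130 ± 16.8), Gas5 (71.0 ± 11.1) led Snhg12 (48.7 ± 15.1), and Snhg3 (37.0 ± 3.05) stood above Snhg8 (30.5 ± 2.02) and Snhg5 (26.3 ± 1.90). Snhg4 (19.6 ± 1.51) and Snhg7 (7.97 ± 2.08) came last. This order is uncertain. For 4 of the 8 hosts matched in GENCODE M21, the length implied by counts and FPKM lies outside the annotated transcripts: above the longest for Gas5, Snhg4 and Snhg8 and below the shortest for Snhg6. For Gas5 it is 5987 to 7521 bases, against 2556 for its longest transcript and 4118 for its whole span. Scaling mean WT CPM by kilobases of annotated exon instead put Gas5 first (228), then Snhg6 (94.3), Snhg1 (81.8), Snhg8 (62.3), Snhg12 (51.1), Snhg5 (39.0), Snhg4 (15.1) and Snhg3 (11.02). In FPKM tested with limma, 18.7% of 9617 genes were called and 6.39% were called lower. Of the hosts, 5 were called lower there (not Snhg7) and 1 higher (Snhg4), again as a description. The size of the fall in Gas5 depended on the unit, with a log2 fold change of -0.71 (SE 0.14) in FPKM and -1.01 in counts.

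Some snoRNAs have count rows of their own, 11 of them within these hosts. These libraries were made with an mRNA kit, which selects polyadenylated RNA, and mature snoRNAs have no poly(A) tail, so a row holds few reads and does not measure the mature snoRNA. Whether its reads come from the snoRNA or from unspliced host RNA cannot be told apart here. Only Snord47, Snord22 and Snora17 passed the filter on low counts, and no other of the 11 exceeded 15 counts in a library.

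Mean CPM was lower in Srsf1-cKO for Snora17, Snora44 (0.519 in WT and 0.352 in Srsf1-cKO) and Snora16a (0.683 and 0.593), and Snora24 held 0 counts. The remaining rows had higher means, but of these only Snord47 and Snord22 had passed the filter on low counts. Snord22 had 33, 20 and 35 counts in WT and 50, 38 and 62 in Srsf1-cKO (log2 fold change 0.51, SE 0.30, edgeR adjusted p = 0.253). Per 1000 counts of Snhg1 that is 13.0, 10.17 and 24.2 in WT and 54.0, 51.1 and 72.7 in Srsf1-cKO. The ratio was higher in every Srsf1-cKO library than in any WT library. In the FPKM table Snord22 passed limma's test, with a difference of 1.45 on the log2(FPKM + 1) scale (adjusted p = 0.0278), but not when that table was left unfiltered (adjusted p = 0.0701).

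Snord47 had 32, 6 and 34 counts in WT and 49, 28 and 28 in Srsf1-cKO, with a log2 fold change of 0.32 (SE 0.54, edgeR adjusted p = 0.705). Per 1000 counts of Gas5 it was 4.18, 0.915 and 5.15 in WT and 10.5, 7.57 and 7.24 in Srsf1-cKO. WT replicate 2 was lowest here, as it was in all 105 snoRNA rows summed (39.0 CPM against 61.0 to 72.7 in the other 5 libraries) and in the 45S ribosomal RNA precursor (6071 CPM against 12443 to 20203). Leaving that library out, the log2 fold change of Snord47 was -0.13.

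Snord87, in Snhg6, had 4, 4 and 2 counts in WT and 7, 12 and 12 in Srsf1-cKO. In Snhg12, Snord99 had 7, 4 and 3 against 6, 8 and 9, and Snora61 had 7, 5 and 8 against 15, 10 and 4. Relative to the host, each of these was higher in every Srsf1-cKO library, as was Snora43 in Snhg7 on at most 3 counts. Over the 11 rows the ratio to the host was higher without overlap in 6, lower in 1 and overlapping in 4, Snora24 among the last with 0 counts throughout. The host counts in these ratios are those that chose the genes, so the ratios carry no test.

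Summed over the 9 rows outside Snhg7, snoRNA rows held 101, 46 and 98 counts in WT and 135, 115 and 130 in Srsf1-cKO. In CPM the means were 10.03 ± 3.61 and 13.2 ± 1.24 (SD over 3 libraries). Their hosts together gave 7.68, 4.23 and 9.68 such counts per 1000 host counts in WT and 18.7, 20.1 and 20.9 in Srsf1-cKO. The higher ratio thus came with far lower host counts and with snoRNA row levels that overlapped between groups.

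Snora17 in Snhg7 was the exception. It had 28, 45 and 21 counts in WT and 7, 7 and 15 in Srsf1-cKO, and fell with a log2 fold change of -1.96 (SE 0.44, edgeR adjusted p = 0.0198). Per 1000 counts of Snhg7 it was 248, 437 and 204 in WT and 81.4, 137 and 170 in Srsf1-cKO, so the row lay lower relative to its host too. The call was lost without WT replicate 1 (adjusted p = 0.0631), Srsf1-cKO replicate 1 (0.0606) or Srsf1-cKO replicate 2 (0.0929).

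**Figure D3:**
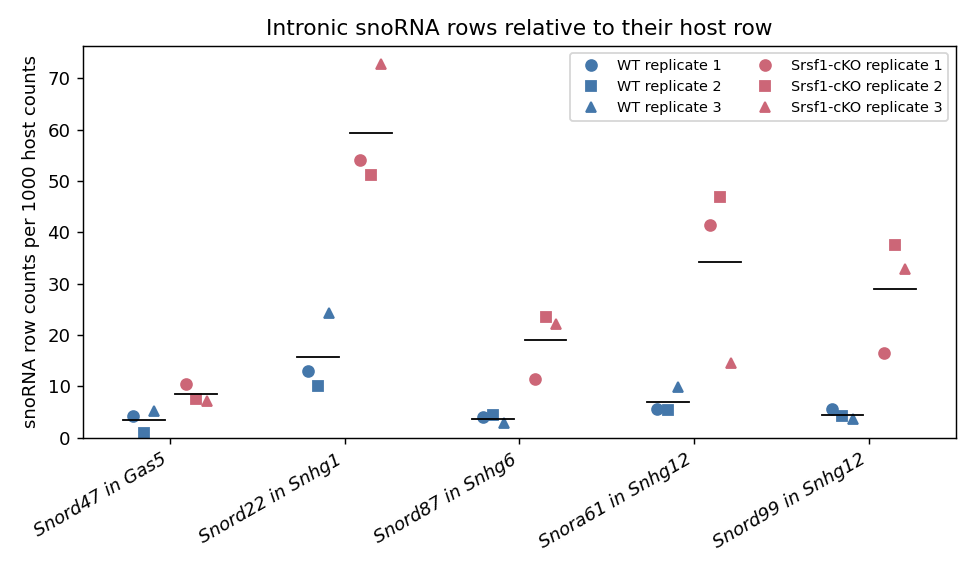
Counts in 5 snoRNA rows per 1000 counts of their host gene, for each library, with a bar at each group mean. The 5 were picked from the 6 of 11 rows whose ratio was higher without overlap. Snora17, the 1 row with a lower ratio, and the 4 overlapping rows are not shown. By that choice the Srsf1-cKO libraries (red) lie above the WT libraries (blue) in each, for Snord22 at 51.1 to 72.7 against 10.17 to 24.2.

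Other long noncoding snoRNA hosts were lower as well. Of 8 tested, 6 fell and 0 rose by edgeR (also 0 by DESeq2, by limma-voom and at an unadjusted p under 0.05, but 1 in the FPKM table), and their median log2 fold change was -1.37. By comparison, 9.50% of all tested genes were called lower and 8.90% higher. The most abundant, 2410006H16Rik, which carries Snord49a, Snord49b and Snord65, fell from 411 ± 72.7 to 135 ± 35.3 CPM (log2 fold change -1.61, SE 0.21, edgeR adjusted p = 0.0050). Zfas1 fell from 330 ± 48.0 to 131 ± 24.3 CPM (log2 fold change -1.33), the Snord52 host 1110038B12Rik from 149 ± 27.2 to 51.5 ± 6.27 CPM (-1.53), and Snhg16 from 45.4 ± 12.6 to 11.5 ± 1.35 CPM (-1.98). Epb41l4aos and Snhg17 fell too, whereas Snhg15 (-0.18) and Dancr (0.02) did not pass. When single libraries were left out, 5 or 6 were called lower, and Snhg17 passed in 1 of these 6 fits. Snhg12 and Snhg16 thus had log2 fold changes of about the same size.

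Protein-coding snoRNA hosts fell in 22 of 34 tested and rose in 2, and the median log2 fold change was -0.62. The shares over all tested genes were 9.50% lower and 8.90% higher. On this list, 19 encode ribosomal proteins. Among the 16 tested that do not, 5 fell (Hspa8, Eef2, Eef1b2, Tpt1 and Taf1d) and 2 rose (Nop56 and Rcc1). Eef2, Eef1b2 and Tpt1 are also counted among the other 5′TOP mRNAs below. Eef2, the elongation factor of translocation, went from 10425 ± 1426 to 5461 ± 312 CPM (log2 fold change -0.93, SE 0.14, edgeR adjusted p = 0.0067). Taf1d, a subunit of the RNA polymerase I selectivity factor, fell by 0.84 on the log2 scale and Rpl5 by 0.79. With WT replicate 1 left out, or Srsf1-cKO replicate 2, 4 were called lower and 0 higher.

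Genes listed as 5′TOP mRNAs were lower in large part. That start was not found above in every host or in every ribosomal protein gene looked at. Cytosolic ribosomal protein genes fell in 71 of 76 tested, and 0 rose by edgeR, DESeq2, limma-voom or at an unadjusted p under 0.05. Their median log2 fold change was -0.72. Beside this and the next list stand the shares over all tested genes, 9.50% lower and 8.90% higher. Rpl10a (-0.94), Rpl17 (-0.85) and Rpl36 (-1.39) had the smallest adjusted p, and the most abundant, Rpl4, fell by 0.71. Of 15 other 5′TOP mRNAs, 11 fell and 0 rose by the same tests, among them Gnb2l1 (-1.01), a ribosome-bound scaffold, Eef1g (-0.79) and the abundant Eef1a1 (-0.57). Many pseudogene copies of ribosomal protein genes make their counts uncertain. With WT replicate 1 left out, 9 ribosomal protein genes and 3 other 5′TOP mRNAs were called lower. With Srsf1-cKO replicate 2 left out, these counts were 6 and 2.

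**Figure D4:**
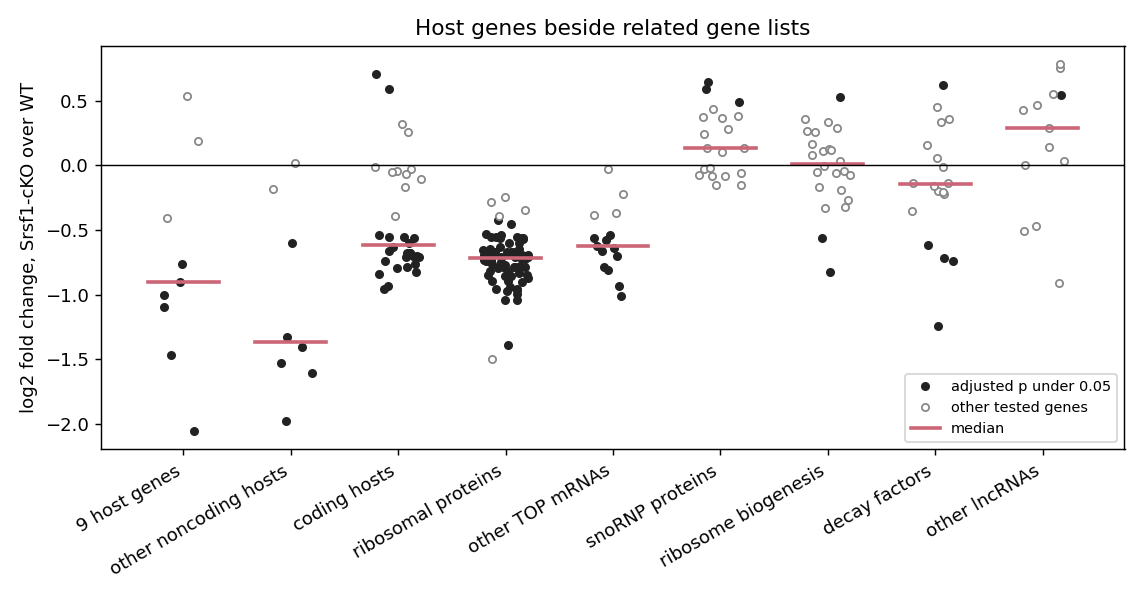
Log2 fold change (Srsf1-cKO over WT) of every tested gene in the 9 hosts and 8 related lists, filled where the edgeR adjusted p was under 0.05, with a red bar at each median. Medians lie at -0.90 for the 9 hosts, -1.37 for other noncoding hosts, -0.72 for ribosomal proteins and 0.13 for snoRNP proteins.

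Proteins that bind the host-derived snoRNAs or load them were listed beside the hosts. Of 20 tested snoRNP proteins and assembly factors, 0 fell by edgeR (also 0 by DESeq2, by limma-voom and at an unadjusted p under 0.05) and 3 rose. Their median log2 fold change was 0.13. Over all tested genes 9.50% were called lower and 8.90% higher, so in a list of 20 these counts set it little apart. Nop56, a core protein of box C/D snoRNPs, rose from 309.6 ± 49.6 to 467 ± 25.5 CPM (log2 fold change 0.59, SE 0.14, edgeR adjusted p = 0.0250). Nhp2l1, which binds the box C/D fold, rose from 33.1 ± 2.73 to 51.7 ± 1.496 CPM, and Ruvbl2, a helicase of snoRNP assembly, by 0.49 on the log2 scale. With 1 library left out, Nop56 passed in 2 of 6 fits, Nhp2l1 in 4 and Ruvbl2 in 1. Nop58, the most abundant, had a log2 fold change of -0.16 (edgeR adjusted p = 0.442). The count of snoRNP genes that rose was 0 without WT replicate 1 or Srsf1-cKO replicate 2, 1 without WT replicate 2 or Srsf1-cKO replicate 1, and 5 under library-size scaling.

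Ribosome biogenesis genes, the pathway that snoRNAs serve, fell in 2 and rose in 1 of 24 tested, and their median log2 fold change was 0.01. Both counts lie near or below the shares over all tested genes, 9.50% lower and 8.90% higher. Polr1d, a subunit shared by RNA polymerases I and III, fell by 0.82 on the log2 scale, the nucleolar chaperone Npm1 fell by 0.56, and the RNA acetyltransferase Nat10 rose by 0.53. Ncl (nucleolin), the most abundant, stood at -0.17 (edgeR adjusted p = 0.385). None of these 3 was called once WT replicate 1 or Srsf1-cKO replicate 2 was left out. Over the 6 such fits Polr1d passed in 4, Nat10 in 2 and Npm1 in 1. Neither Polr1d nor Npm1 passed in the FPKM table.

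NMD factors, which act on Gas5 and other host RNAs, fell in 4 and rose in 1 of 18 tested, with a median of -0.15. The shares over all tested genes were 9.50% lower and 8.90% higher, and counts in so short a list are not read as a result about it. Smg9, a regulator of the kinase Smg1, fell from 23.6 ± 2.64 to 9.96 ± 1.42 CPM (log2 fold change -1.24, SE 0.19, edgeR adjusted p = 0.0073), and the endonuclease Smg6 (-0.74), Upf2 (-0.61) and Upf3b (-0.72) fell as well, while Magoh rose by 0.62. Smg1, the most abundant, was at -0.20 (edgeR adjusted p = 0.307), and the helicase Upf1 at -0.35 (0.154). Smg9 passed in all 6 fits with 1 library left out, Smg6, Upf2 and Upf3b in 3 and Magoh in 2. In each case 1 factor was called lower when WT replicate 1, Srsf1-cKO replicate 1 or Srsf1-cKO replicate 2 was left out.

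Glucocorticoid receptor genes were listed because Gas5 RNA binds that receptor. The receptor, Nr3c1, had a log2 fold change of 0.02. Among 9 tested, Tsc22d3 (-1.24), Klf9 (-0.79) and Ddit4 (-1.33) fell and Fkbp5 (0.57) rose. With 9.50% of all tested genes called lower and 8.90% higher, so few calls among 9 genes are not read as a result about receptor targets. Errfi1, the most abundant, was at -0.50 (edgeR adjusted p = 0.158). With 1 library left out, Tsc22d3 passed in 3 of 6 fits, Klf9 in 4, and Ddit4 and Fkbp5 in 2. None of these 4 was called once WT replicate 1 or Srsf1-cKO replicate 2 was left out.

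Long noncoding RNAs that are not snoRNA hosts gave a median log2 fold change of 0.29 over 13 tested. By edgeR 0 fell (0 by limma-voom, 1 by DESeq2 and 1 at an unadjusted p under 0.05), and Oip5os1 rose by 0.54 (edgeR adjusted p = 0.0413). With 9.50% of all tested genes called lower and 8.90% higher, counts this small in 13 genes are not read as a result about the list. Pvt1 was at -0.47 (0.0651) and Ftx at 0.78 (0.0632). Malat1, the most abundant of them, was at -0.91 with an adjusted p of 0.238, on widely spread WT libraries. The call for Oip5os1 held in 2 of the 6 fits with 1 library left out. It was lost for WT replicates 1 and 3 and Srsf1-cKO replicates 1 and 2, and also with no filter on low counts.

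Genes with a profile over the 6 libraries closest to the mean profile of the 9 hosts were mostly ribosomal protein genes. Closeness was the root mean square distance between centred log2 CPM, over 5108 candidates (mean log2 CPM 5 or more), whose median distance was 0.434. The nearest 8 were Rps6 (0.0538), Rpl23 (0.0542), Rpl17 (0.0561), Rpl5 (0.0563), Midn (0.0569), Rpl23a (0.0585), Rps24 (0.0641) and Zc3h7a (0.0667). Of these, 6 encode ribosomal proteins, and Rpl5 and Rpl23a also carry snoRNAs. The mean profile is built from the values by which the hosts were chosen, so this likeness is a description of genes with a difference of similar size. Single hosts lay farther from it than these 8, from 0.134 for Snhg6 to 0.690 for Snhg4, and Snhg3 (0.532), Snhg12 (0.668) and Snhg4 lay beyond the median distance of the candidates. Log2 fold changes of the 8 genes lay between -0.85 and -0.67, smaller in size than those of Gas5, Snhg1, Snhg5, Snhg6 and Snhg12.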

How the data were processed

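The authors deposited 1 table of whole-number read counts per gene, not normalized, 1 table of FPKM values (fragments scaled by length and depth, a unit read here from the values), and an alignment report. STAR 2.4.2a is named in the report's header, and STAR, Cufflinks and mm9 are named per the submitters' processing notes. Not given in the sources used here are the counting program, the annotation and strand use. Dates stood in place of 27 gene names. Members and gene lists were chosen with earlier results of these data known.

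Counts were tested with edgeR 4.0.16 (R 4.3.3): filterByExpr, TMM, a two-sided quasi-likelihood test of genotype alone, and Benjamini-Hochberg adjustment over 10454 genes, called at 0.05. CPM are TMM-scaled. For FPKM, limma 3.58.1 was run on log2(FPKM + 1), which understates changes of low genes, keeping genes that reached 1 in 3 or more libraries. The fitting script was checked on simulated counts. Other settings were scaling by library size, upper quartile or RLE, 2 filters, DESeq2 1.42.0, limma-voom, a replicate block, each library left out, the 45S precursor row left out, and FPKM with 3 settings. Genes named are all hosts and their snoRNAs, up to 3 genes of each related list by adjusted p plus the most abundant one, and the 8 nearest profiles. Neighbouring genes and Upf1, Upf3b, Magoh, Ddit4, Nr3c1, Snhg15, Snhg17, Zfas1, Dancr, Hspa8, Eef1b2, Tpt1 and Rcc1 were added after their values were seen. Some list genes have other names in the table: Zfas1 is 1500012F01Rik there, Snhg15 Gm11974, Snhg16 1810032O08Rik, Snhg17 9430008C03Rik, Epb41l4aos 2410004N09Rik and Oip5os1 1700020I14Rik.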

Additional observations from a re-analysis of the deposited data

How the results depend on the processing

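Results were recomputed under 18 other settings. Gas5, Snhg1, Snhg5 and Snhg12 kept direction and call in all 18, and Snhg3 and Snhg8 stayed uncalled. Snhg6 lost its call in 2 and Snhg7 in 11, and Snhg4 gained one in 4. The number of genes called over the whole table was 1923, with 195 to 1989 when single libraries were left out (lowest for WT replicate 1, then 234 for Srsf1-cKO replicate 2 and 1121 for Srsf1-cKO replicate 1) and 1146 for FPKM with no filter. The cause of these drops was not tested. Of 36 genes named from the related lists that passed (not counting those named for a near profile alone), 14 passed with WT replicate 1 left out and 13 with Srsf1-cKO replicate 2 left out. Library-size scaling moved the median of all genes to 0.11, and FPKM to 0.10. The log2 fold change of Snord47 ranged from -0.13 to 0.71 when single libraries were left out, reversing to -0.13 for WT replicate 2 and to -0.04 for Srsf1-cKO replicate 1. Of the 7 hosts with a promoter entry, 6 held a pyrimidine run of at least 5 bases and 1 a run of at least 7. Of tested genes 37.1% and 15.3% did, and of 58 ribosomal protein genes 35 and 28. As stated above, such a count over the hosts is void as a check.

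With a replicate block, 2270 genes were called in all, 6 hosts were called lower, and their median log2 fold change was -0.90. Deviations of same-numbered libraries correlated at 0.222, 0.0128 and 0.272. For WT replicates 1 and 3 the same-numbered library correlated best, whereas WT replicate 2 correlated best with Srsf1-cKO replicate 1 (0.201). With 3 libraries per group, these values cannot tell whether same-numbered libraries were handled together, and the labels give only a shared number.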
